A study of Homo sapiens with 7 samples.

Results

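Mature red cells need haem, and the mitochondrion is where its synthesis begins and ends. The 8 genes described here encode transporters that carry iron, glycine, glutathione, porphyrin or haem across membranes along this route: SLC25A37, SLC25A39, SLC25A38, ABCB10, ABCB6, TMEM14C, FLVCR1 and ABCG2. They were chosen by name from knowledge of the pathway and not by a rule on their values, although earlier results of these data were known. They are 8 of the 32738 gene rows in the deposited table. All 8 passed the filter on low counts that left 10212 genes for testing.

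The libraries came from HUDEP-2, an immortalised erythroid progenitor line made from human cord blood. Before differentiation, the cells of every group were grown with stem cell factor (hSCF), erythropoietin, dexamethasone and doxycycline and infected with lentivirus for CRISPR interference (CRISPRi), in which a guide RNA brings a repressor to chosen DNA. All groups then spent 72 h in a differentiation medium containing transferrin, insulin and 3 IU/ml erythropoietin. The 3 control libraries carried a non-targeting guide, 2 libraries carried guide 1 and 2 carried guide 2, both aimed at a regulatory region that lies upstream of the erythroid isoform of TMCC2. The labels name neither the repressor used nor whether clones or pools of infected cells were grown. Replicates are not said to be separate cultures either, and the spread behind each p-value is that among these libraries and could be technical.

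The inner mitochondrial membrane is closed to iron and to most intermediates of haem synthesis, so the pathway depends on carriers. Iron enters the matrix through mitoferrin 1 (SLC25A37), glycine is brought in for the first enzyme, ALAS2, and the porphyrin made later in the cytosol must return before ferrochelatase (FECH) inserts the iron. Loss of several of these carriers is known to cause anaemia, and SLC25A38 is a gene of congenital sideroblastic anaemia.

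By the labels, the groups differed only in the guide, so the 3 guide sequences are shown first, 5′ to 3′, in lower case.
Non-targeting guide: atcgcgaggacccgttccgcc
Guide 1: gtcgtgctgcaggtgaagtg
Guide 2: ccatccttcagagtaaacag
The non-targeting guide has 21 bases and the other two have 20. Each was set against the 300-base promoter windows of RefSeq (GRCh38.p14, 250 bases before to 50 after each start), keeping matches next to an NGG motif, the short sequence that Cas9 needs beside its target. Of the 8 genes, 7 had a window in the table, and ABCG2 had 5. The 3 windows shown are the closest match of the non-targeting guide and of guide 1 among the transporters, and that of guide 1 in TMCC2. Capitals mark bases that differ from the guide, and the last 3 bases are the NGG.
Non-targeting guide in ABCB10: aGcCcgaggacccTCCcGgcccgg
Guide 1 in ABCG2: gtcCtgctgGCggCTCagCgcgg
Guide 1 in TMCC2: AGcgGgctgcagTtCaGgGgcgg
The ABCB10 match lies at chr1:229558703-229558726 on the plus strand with 6 mismatches, and 0.131% of the 35116 promoter windows held a match as close or closer. The ABCG2 match lies at chr4:88159036-88159058 on the minus strand with 7 mismatches, as many as in TMCC2, at chr1:205227728-205227750. That TMCC2 match is only the closest in 6 promoter windows and not the site guide 1 was aimed at. The labels place the aimed-at site in an enhancer of TMCC2, and it was not located here. Matches that close to guide 1 were found in 2.10% of windows. Guide 2 had between 10 and 12 mismatches in the windows of the transporters. These counts describe letters only, and binding at these places was not measured.

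TMCC2, the targeted gene, stood at 832, 839 and 937 CPM in the non-targeting libraries (counts relative to the TMM-scaled library size). It had 229 and 219 CPM with guide 1, and at 229 and 260 CPM with guide 2. The fall was -1.89 on the log2 scale for both guides together (SE 0.09, adjusted p = 4.43e-08 in edgeR's quasi-likelihood test), and the guide libraries did not overlap the controls. On the annotation used here (GENCODE v29, GRCh38), FLVCR1 and ABCB10 share chromosome 1 with TMCC2, at distances of 7.57 and 24.2 Mb. The other 6 genes are on other chromosomes: SLC25A38 on 3, ABCG2 on 4, TMEM14C on 6, SLC25A37 on 8, SLC25A39 on 17 and ABCB6 on 2.

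Library totals ran from 9780800 to 11350113 counts, and the 8 transporters took between 1.64% and 1.87% of them. One control, non-targeting replicate 1, was unlike the rest. Its median correlation of log2 CPM with them was 0.984, against 0.991 to 0.993 for the other 6, and its counts differed from those of its 2 fellow controls by a chi-square of 26.5 and 24.1 per degree of freedom, against 2.96 between those 2. Erythroid markers summed to between 224638 and 262042 CPM of total counts, led by HBB. Among the 10 neutrophil and monocyte markers, MPO, S100A8 and S100A9 were at 0 and the sum reached at most 4.56 CPM, while 5 of 8 lymphocyte markers were at 0. PF4, PPBP and VWF were at 0 among the 8 megakaryocyte markers, whose sum of 177 to 214 CPM came mostly from TUBB1. Mast cell and basophil markers, led by TPSAB1 with HDC, MS4A2 and CLC at 0, summed to 9.69 to 12.1 CPM in the controls, 10.5 to 10.9 CPM with guide 1 and 7.63 to 8.64 CPM with guide 2. The 1 tested marker of that list stood at -0.44 on the log2 scale for guide 2 and was not called, and its part in the values of guide 2 was not tested. In bulk RNA, fewer cells of a type and less RNA per cell cannot be told apart.

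The transporter transcripts spanned almost the whole range of expression. SLC25A37 was the 6th and SLC25A39 the 13th most counted gene of the 10212 tested in the non-targeting libraries, whereas FLVCR1 was in place 9364. To compare genes, CPM was divided by the median length of a gene's annotated transcripts in kb. On this scale, SLC25A37 stood at 14435 ± 668 CPM per kb (SD, n = 3 non-targeting libraries) and SLC25A39 at 5601 ± 905. TMEM14C followed at 581 ± 28.3, SLC25A38 at 207 ± 21.6, ABCB10 at 80.6 ± 14.6 and ABCG2 at 43.8 ± 4.19. ABCB6 had 8.17 ± 0.448 CPM per kb and FLVCR1 2.14 ± 0.962. In this order no gene overlapped its neighbour in the 3 libraries.

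The length of the transcript in use is unknown, and part of the order rests on it. SLC25A37 has 12 annotated transcripts with a median of 779 bases and a longest one of 4823 bases. Divided by the longest transcript, its level was 2332 ± 108 CPM per kb and that of SLC25A39 was 2190 ± 354, so that the libraries of these 2 genes overlapped. ABCB10 and ABCG2 changed places, with 18.3 ± 3.31 CPM per kb for ABCB10 and 24.9 ± 2.38 for ABCG2. The remaining places were the same on either length.

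**Figure D1:**
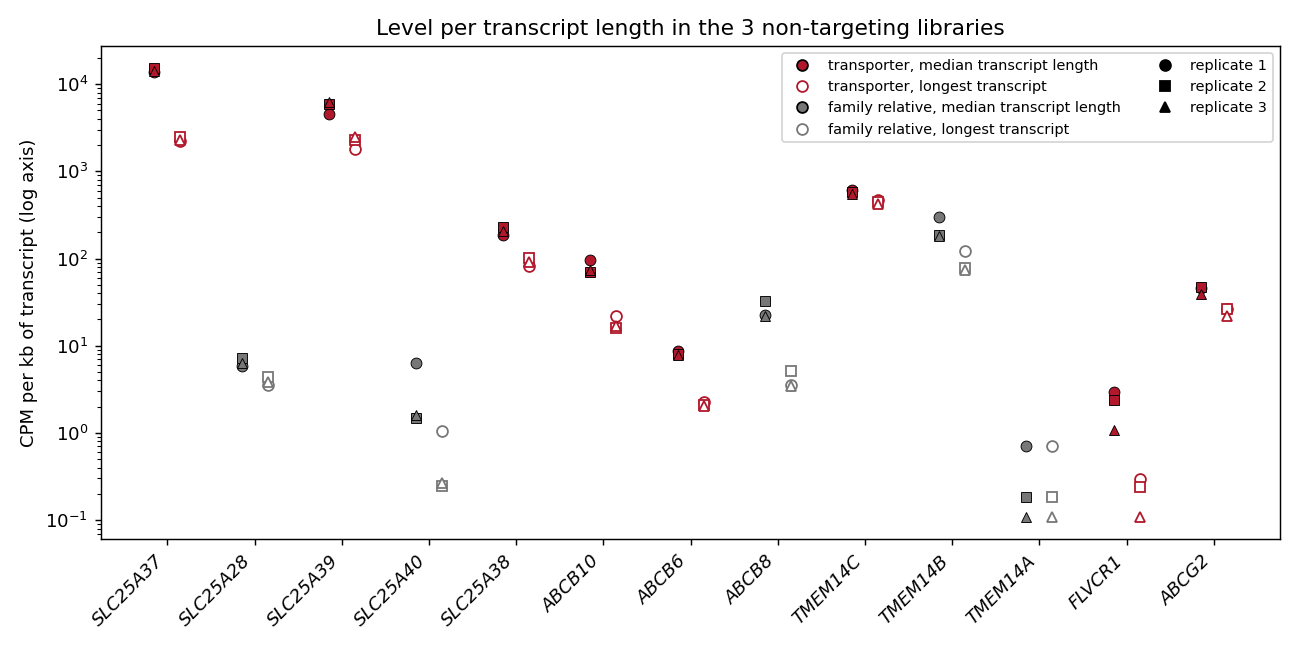
Level of each transporter (red) and its family relatives (grey) in the 3 non-targeting libraries, in CPM per kb of transcript on a log axis; filled symbols use the median transcript length and open ones the longest. SLC25A37 and SLC25A39 lie at the top, FLVCR1 near the bottom, and each relative shown of a highly expressed carrier lies below it; the 4 relatives of FLVCR1 and ABCG2 are not drawn.

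SLC25A37, mitoferrin 1, imports iron into the mitochondrial matrix of developing red cells. It had 10887, 11842 and 11005 CPM in the non-targeting libraries, 11540 and 12138 CPM with guide 1, and 12643 and 12882 CPM with guide 2. The guide 2 libraries lay above all controls and above guide 1, while the guide 1 libraries overlapped the controls. On the log2 scale the fold change was 0.18 for guide 2 (SE 0.10, 95% interval -0.02 to 0.39, adjusted p = 0.999 by edgeR) and 0.07 for guide 1 (SE 0.10, adjusted p = 0.912), and neither passed the threshold. A guide 2 group wholly above the controls was found for 8.16% of the genes tested. Without non-targeting replicate 1, the guide 2 value was 0.16 with an adjusted p of 0.122 by edgeR.

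Its close relative SLC25A28, mitoferrin 2, which supplies iron in other tissues, was scarce. It had 5.12, 6.30 and 5.49 CPM in the non-targeting libraries, 7.78 and 6.26 CPM with guide 1, and 5.70 and 7.17 CPM with guide 2. Per kb of median transcript length, SLC25A37 was 2248 ± 139 times as abundant as SLC25A28 in the non-targeting libraries, and 602 ± 37.1 times by the longest transcripts. Mitoferrin 1 made up nearly all mitoferrin RNA in every group, and the first ratio lay between 1665 and 2488 in the 7 libraries.

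ABCB10 sits in the inner membrane, where it is known to bind and stabilise mitoferrin 1. It had 85.2, 61.4 and 65.3 CPM in the non-targeting libraries, 59.5 and 63.3 CPM with guide 1, and 64.2 and 70.2 CPM with guide 2. The highest value belonged to non-targeting replicate 1, and the remaining 6 libraries ran from 59.5 to 70.2 CPM. The log2 fold change of both guides against non-targeting was -0.14 (SE 0.12, 95% interval -0.40 to 0.12, adjusted p = 0.998 by edgeR). Without non-targeting replicate 1 it was 0.02. Compared per kb of median transcript length, SLC25A37 was 144, 217 and 190 times as abundant as ABCB10 in the non-targeting libraries, 217 ± 1.85 times with guide 1 (SD, n = 2) and 214 ± 10.7 times with guide 2 (n = 2).

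SLC25A39 imports glutathione, the thiol that protects the matrix from oxidation. It had 3968, 5143 and 5457 CPM in the non-targeting libraries, 5339 and 5038 CPM with guide 1, and 4708 and 4430 CPM with guide 2. Non-targeting replicate 1 was the lowest of the 7 libraries, and the guide 2 libraries lay below those of guide 1. Against non-targeting, the log2 fold change was -0.09 for guide 2 (SE 0.13, adjusted p = 0.999 by edgeR) and 0.10 for guide 1 (SE 0.13, adjusted p = 0.913). Without non-targeting replicate 1, these became -0.21 (adjusted p = 0.052) and -0.03 (adjusted p = 0.979). The difference between the guides was -0.18 (SE 0.14, 95% interval -0.48 to 0.11, adjusted p = 0.983).

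SLC25A40, the related glutathione carrier, had 4.24, 0.99 and 1.08 CPM in the non-targeting libraries and between 1.40 and 2.27 CPM in the guide libraries. Its highest value was again that of non-targeting replicate 1, the library in which SLC25A39 was lowest. The ratio of SLC25A39 to SLC25A40 per kb was 722 in that library, against 4005 and 3908 in the other controls. In the guide libraries this ratio ran from 1819 to 2590.

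SLC25A38 brings glycine into the matrix, where ALAS2 joins it to succinyl-CoA. It had 175, 215 and 194 CPM in the non-targeting libraries, 191 and 207 CPM with guide 1, and 197 and 208 CPM with guide 2. All guide libraries lay within the range of the controls. For both guides the log2 fold change was 0.04 (SE 0.10, 95% interval -0.17 to 0.25, adjusted p = 0.998 by edgeR), and without non-targeting replicate 1 it was -0.03.

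TMEM14C is an inner membrane protein needed to move protoporphyrinogen IX into the matrix for the last steps of haem synthesis. It had 547, 522 and 497 CPM in the non-targeting libraries, 512 and 486 CPM with guide 1, and 501 and 449 CPM with guide 2. The groups overlapped, with guide 2 replicate 2 lowest. The log2 fold change of both guides was -0.10 (SE 0.09, 95% interval -0.29 to 0.09, adjusted p = 0.998 by edgeR).

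TMEM14B, its family relative, had 194, 122 and 118 CPM in the non-targeting libraries, 114 and 111 CPM with guide 1, and 123 and 121 CPM with guide 2. The guide 1 libraries lay below all controls, but 1 control, non-targeting replicate 1, stood far above the remaining 6 libraries. For guide 1 the log2 fold change was -0.37 (SE 0.18, 95% interval -0.75 to 0.01, adjusted p = 0.877 by edgeR). Per kb of median transcript length, TMEM14C was 2.03 times as abundant as TMEM14B in non-targeting replicate 1 and between 2.67 and 3.25 times in the remaining libraries. TMEM14A, with 1 to 8 counts per library, did not pass the filter.

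ABCB6, a porphyrin transporter that also carries the Langereis blood group antigen, was scarce. It had 6.89, 6.30 and 6.25 CPM in the non-targeting libraries, 9.16 and 6.54 CPM with guide 1, and 5.05 and 6.99 CPM with guide 2. These stand for 54 to 93 counts. Guide 1 replicate 1 was highest and guide 2 replicate 1 lowest, so both extremes were single libraries. The log2 fold change was 0.27 for guide 1 (SE 0.23, 95% interval -0.21 to 0.76, adjusted p = 0.885 by edgeR) and -0.11 for guide 2 (SE 0.23, adjusted p = 0.999). Without guide 1 replicate 1 the guide 1 value was 0.01, and without guide 2 replicate 1 the guide 2 value was 0.11. In GENCODE v29, 54.7% of the exon bases of ABCB6 are shared with AC068946.2, a gene on the same strand, which is not listed in the table.

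ABCB8, another mitochondrial member of the ABCB family, ran from 16.2 to 24.1 CPM over the 7 libraries. Per kb of median transcript length, the non-targeting libraries held 3.30 ± 1.11 times as much ABCB10 as ABCB8 RNA (SD, n = 3), and 4.75 ± 1.59 times by the longest transcripts.

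FLVCR1 is known as a haem exporter, with a shorter form reported in mitochondria. It was counted 20, 16 and 6 times in the non-targeting libraries, 12 and 14 times with guide 1, and 17 and 8 times with guide 2. These counts correspond to 0.646 to 1.77 CPM, and the groups overlapped widely. The 95% interval of the log2 fold change of both guides ran from -0.98 to 0.75 around -0.11, which is 0.508-fold to 1.68-fold, so this test leaves a change of 1.5 times in either direction possible. FLVCR2, MFSD7, DIRC2 and ABCG1, the relatives of FLVCR1 and ABCG2, had no more than 6 counts each in any library and did not pass the filter, and FLVCR2 and MFSD7 were at 0 in all controls.

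ABCG2 exports porphyrins and many drugs across the plasma membrane and carries the Junior blood group antigen. It had 116.7, 118.3 and 99.1 CPM in the non-targeting libraries, 88.6 and 86.6 CPM with guide 1, and 106.6 and 117.4 CPM with guide 2. Both guide 1 libraries lay below all controls and below both guide 2 libraries, while guide 2 overlapped the controls. Of all genes tested, 10.3% had guide 1 wholly below the controls. Guide 1 gave a log2 fold change of -0.35 (SE 0.12, 95% interval -0.61 to -0.09), a level of 0.786-fold, which did not pass the threshold (adjusted p = 0.877 by edgeR). For guide 2 against non-targeting it was 0.01 (SE 0.12, 95% interval -0.25 to 0.27), and for guide 2 against guide 1 it was 0.36 (SE 0.13, 95% interval 0.07 to 0.64, adjusted p = 0.983 by edgeR). Without non-targeting replicate 1, the guide 1 value was -0.32 (adjusted p = 0.121 by edgeR) and the difference between the guides 0.36 (adjusted p = 0.058). Over the alternatives run, the adjusted p of guide 1 against non-targeting ranged from 0.121 to 1.00, and that of guide 2 against guide 1 from 0.058 to 1.00. None of the 10 erythroid markers was called for guide 1 by edgeR. These markers had a median log2 fold change of 0.04 and ran from -0.49 to 0.13, with 8 positive and 2 negative. They summed to 260978 and 262042 CPM of total counts with guide 1, to between 224638 and 259232 in the controls, and to 247911 and 252927 with guide 2; their part in the ABCG2 values was not tested.

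**Figure D2:**
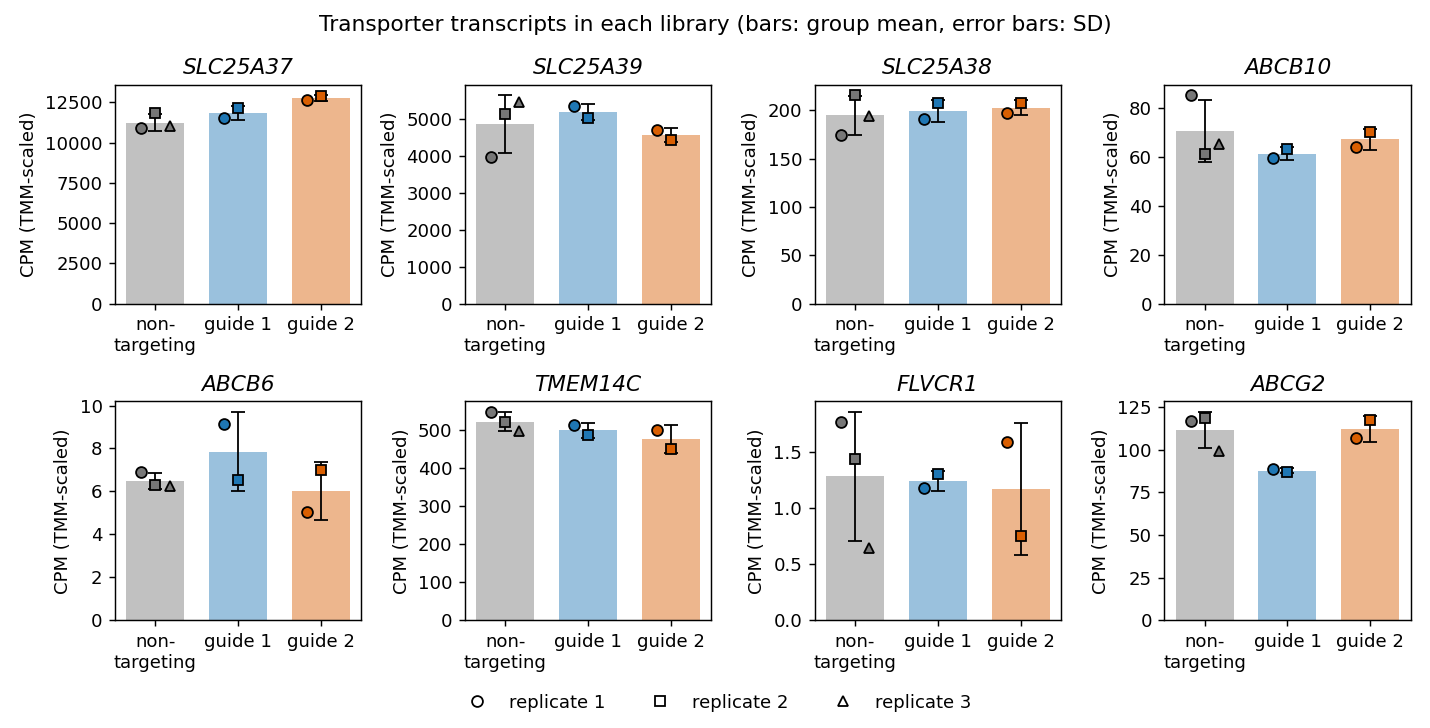
TMM-scaled CPM of each transporter in every library; points are libraries (circle, square and triangle for replicates 1, 2 and 3), bars are group means and error bars are SD, and each panel has its own axis from 0. ABCG2 is lower in both guide 1 libraries than in any other, SLC25A37 is highest in guide 2, and ABCB10 is highest and SLC25A39 lowest in non-targeting replicate 1.

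Counted together, none of the 8 transporters was called by edgeR at an adjusted p under 0.05 in any of the 4 comparisons. Of the 10212 genes tested, such calls made up 0.0196% with both guides, 0.0294% for guide 1, 0.00979% for guide 2 and 0% for guide 2 against guide 1. DESeq2 also called 0 of the 8 in each comparison. At an unadjusted p under 0.05, edgeR gave 0 transporters for both guides (4.19% of all genes), 1 for guide 1 (ABCG2, 4.78% of all genes), 0 for guide 2 (2.75%) and 1 for guide 2 against guide 1 (ABCG2, 2.86%). Without non-targeting replicate 1, these counts were 2 for both guides (SLC25A37 and SLC25A39, 10.5% of all genes), 1 for guide 1 (ABCG2, 7.37%), 2 for guide 2 (SLC25A37 and SLC25A39, 14.9%) and 3 for guide 2 against guide 1 (these 2 genes and ABCG2, 13%). ABCG2 was not among them for guide 1 without either guide 1 library, nor between the guides without either guide 1 library or without guide 2 replicate 2. Without non-targeting replicate 3, ABCG2 was also counted for both guides (510 of 10164 genes). With total counts in place of TMM, SLC25A37 was counted for both guides (401 of 10212 genes), for guide 2 (307) and between the guides (302). With no filter, SLC25A37 was counted for guide 2 (486 of 18772 genes). With only the 2 guide groups fitted, SLC25A39 joined ABCG2 between the guides, but the count over all genes also rose, to 1217 of 9955.

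The directions were mixed. For both guides, 4 transporters had a positive and 4 a negative log2 fold change, with a median of -0.05, against -0.01 over all genes tested. Guide 1 gave 4 positive and 4 negative values with a median of -0.02, and guide 2 gave 3 positive and 5 negative values with a median of -0.08; the medians over all genes were -0.01 and -0.02. For both guides, the 95% intervals of 7 transporters lay between 0.759-fold and 1.41-fold, and only that of FLVCR1 was wider, from 0.508-fold to 1.68-fold.

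No transporter had both guide groups wholly above or below the controls, which 3.03% and 2.37% of genes did. Guide 1 lay wholly below the controls for ABCG2 alone (10.3% of genes) and wholly above for none (11.3% of genes). Guide 2 lay wholly above the controls for SLC25A37 alone and wholly below for none (6.86% of genes). Between the guides, guide 2 was wholly above guide 1 for ABCB10, SLC25A37 and ABCG2 (21.9% of genes) and wholly below for SLC25A39 (22.2%). The comparisons of guide 1 and of guide 2 with non-targeting share their 3 controls.

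**Figure D3:**
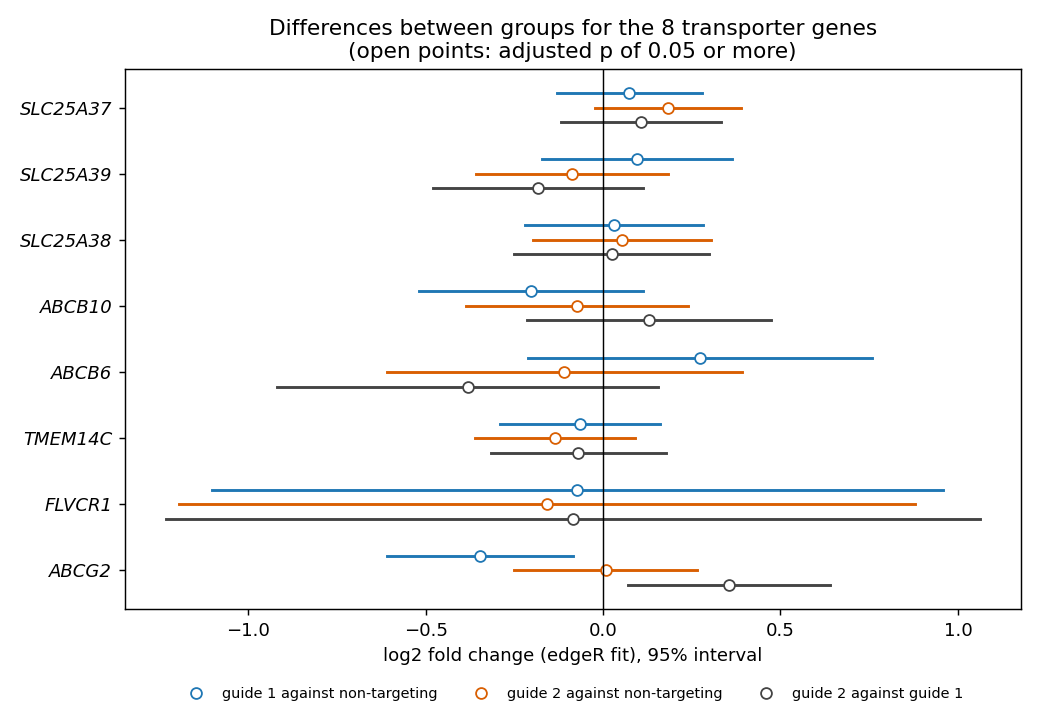
Log2 fold change of each transporter (point) with its 95% interval (line) from the edgeR fit, for guide 1 and guide 2 against non-targeting and for guide 2 against guide 1. All points are open because no adjusted p was under 0.05, and only 2 intervals, both of ABCG2, leave out 0.

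Non-targeting replicate 1 moved several of these genes and their relatives in different directions. Relative to the mean of the 3 controls, it was higher by 0.27 on the log2 scale for ABCB10, 0.42 for TMEM14B and 1.01 for SLC25A40, whereas SLC25A39 stood at -0.29 and SLC25A38 at -0.16. For SLC25A37, TMEM14C, ABCB6 and ABCG2 the same library was within 0.09 of the control mean, and FLVCR1 stood at 0.46 on 20 counts. The cause was not tested.

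**Figure D4:**
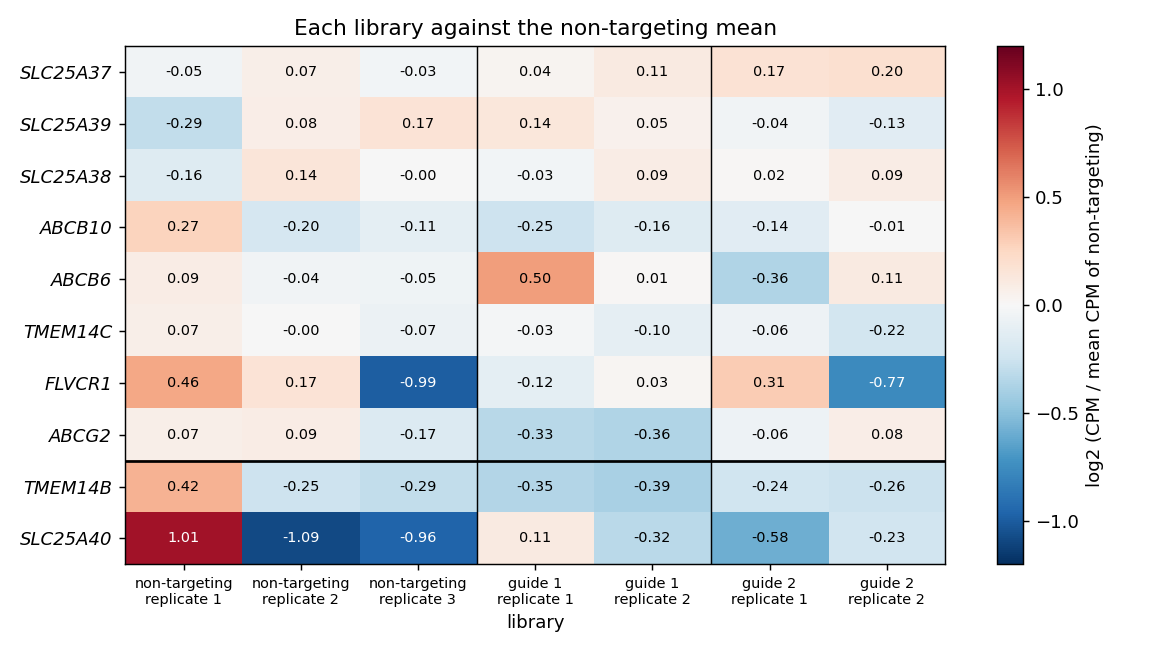
Log2 ratio of each library's CPM to the mean of the 3 non-targeting libraries, for the 8 transporters and, below the line, TMEM14B and SLC25A40. Non-targeting replicate 1 is high for ABCB10 (0.27), TMEM14B (0.42) and SLC25A40 (1.01) and low for SLC25A39 (-0.29), and both guide 1 libraries are low for ABCG2 (-0.33 and -0.36).

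Patterns over the 7 libraries were compared by centring each gene's log2 CPM on its own mean and taking the root mean square difference. The genes compared had at least 20 CPM (4305 for each of SLC25A39, SLC25A37 and ABCG2). SLC25A39 was most like SERPINH1 (0.01) and ATP6V0D1 (0.02), SLC25A37 most like CASC3 and NDUFA1 (0.03 each), and ABCG2 most like SEC24B (0.05) and DNAJA4 (0.06). The median difference from all genes compared was 0.17 for SLC25A39, 0.16 for SLC25A37 and 0.22 for ABCG2. The nearest genes lay further off for FLVCR1 (RAD54L2, 0.13) and ABCB6 (KIAA0930, 0.10), each among 4306 compared. With 7 libraries and this many genes, a close partner carries little weight.

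The enzymes served by these carriers differed widely in level. Per kb of median transcript length, ALAS2, which makes the first intermediate, had 11171 ± 1615 CPM per kb in the non-targeting libraries (n = 3). FECH, which inserts the iron, had 4037 ± 270 CPM per kb, while PPOX, which acts on the substrate that TMEM14C moves, had 274 ± 47.1. ALAS1 was the lowest of the 9 enzymes at 29.8 ± 2.95 CPM per kb. None of the 9 haem synthesis enzymes was called in edgeR's test of both guides. Of the 9, 5 had positive and 4 negative log2 fold changes with a median of 0.01. Among them were ALAS1 at 0.16 (SE 0.11), PPOX at 0.12 (SE 0.11) and CPOX at -0.20 (SE 0.12). CPOX also spread widely in the controls, with 289 ± 61.0 CPM (n = 3) against 253 ± 18.3 with both guides (n = 4).

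The carriers' partners and supplies were also tested for both guides, and edgeR called none of them. Of 11 mitochondrial partners of haem synthesis, 4 were positive and 7 negative with a median of -0.15, including the ALAS2 regulator CLPX at -0.18 (SE 0.11) and FAM210B at -0.15 (SE 0.10). Among 5 tested genes of glycine supply, SHMT2, the mitochondrial serine hydroxymethyltransferase, stood at 0.23 (SE 0.11) and the plasma membrane glycine transporter SLC6A9 at -0.06 (SE 0.10). Of 6 genes of glutathione supply, 1 was positive and 5 negative with a median of -0.12, and the 2 subunits of the rate-limiting enzyme, GCLM and GCLC, stood at -0.35 (SE 0.24) and -0.15 (SE 0.12).

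Among 6 genes of haem sensing and breakdown, 3 were positive and 3 negative. HMOX1, the inducible haem oxygenase, had 46.0 ± 7.55 CPM in the controls (n = 3), 71.3 ± 0.842 with guide 1 (n = 2) and 53.9 ± 7.08 with guide 2 (n = 2). Its log2 fold change for guide 1 was 0.63 (SE 0.15), which did not pass the threshold (adjusted p = 0.707 by edgeR). Of 16 tested genes of cellular iron and haem transport and storage, 5 were positive and 11 negative with a median of -0.04. SLC39A8, a metal importer, stood at -0.52 (SE 0.19, adjusted p = 0.998 by edgeR). It had 29.9 ± 10.1 CPM in the controls (n = 3) and 21.0 ± 3.07 with both guides (n = 4), so the controls spread widely. The 12 tested genes of iron-sulphur cluster assembly had 6 values in each direction, with the scaffold ISCU at 0.11 (SE 0.09). As a reference, 14 general mitochondrial genes had 4 positive and 10 negative values with a median of -0.01.

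The promoters of these genes were read for 6 short motifs on both strands, none of which holds another. CACGTG, an E-box, was present in a window of 4 of the 7 genes with an entry, namely SLC25A38, TMEM14C, ABCB6 and ABCG2, against 7.26% of all 35116 windows. ABCG2 has 5 overlapping or separate windows, which gives it more chances of a match. CCNCNCCC was found for 6 genes (56.2% of windows) and CCAAT for 3 (34.6%). The GATA motif was searched as AGATAA, as AGATAG, as TGATAA and as TGATAG; none of the 7 genes had it, and 8769 of the windows did. TGANTCA, present in 7.71% of windows, and TATAAA, present in 11.5%, were found for none of the 7. The windows of the 2 genes with a single start and the highest level per kb among those with CACGTG are printed here from RefSeq, GRCh38.p14, on the plus strand, with CACGTG in capitals.
SLC25A38 promoter, chr3:39383120-39383419: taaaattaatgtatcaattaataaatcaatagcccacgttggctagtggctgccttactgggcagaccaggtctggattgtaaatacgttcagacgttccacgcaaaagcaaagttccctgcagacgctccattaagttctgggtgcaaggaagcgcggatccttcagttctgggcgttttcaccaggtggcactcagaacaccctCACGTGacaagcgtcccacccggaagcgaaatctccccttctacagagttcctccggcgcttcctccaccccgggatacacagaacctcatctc
TMEM14C promoter, chr6:10722820-10723119: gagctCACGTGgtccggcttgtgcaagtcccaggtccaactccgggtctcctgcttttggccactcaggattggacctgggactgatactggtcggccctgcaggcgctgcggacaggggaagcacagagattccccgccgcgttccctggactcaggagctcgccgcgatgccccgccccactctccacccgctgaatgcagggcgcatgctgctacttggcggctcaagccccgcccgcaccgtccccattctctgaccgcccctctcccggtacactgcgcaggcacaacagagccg
A match is a stretch of letters and not a shown binding site, and no binding or accessibility data were used here.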

How the data were processed

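The authors deposited 1 table of raw read counts per gene symbol, unscaled and with 1 column for each of the 7 libraries, per the file header. STAR and the GRCh37 (hg19) build are named per the submitters' processing notes. For the counting program, gene annotation and strand setting, nothing is stated in the sources used here. Libraries were made with Smart-seq2 and Nextera indexing, per the labels' protocols, which marks no strand and uses no molecular identifiers.

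R 4.3.3 and edgeR 4.0.16 were used to filter genes (filterByExpr, minimum count 10), scale by TMM and fit a quasi-likelihood model of the 3 groups over the 7 libraries. The fit left 4 residual degrees of freedom, and its biological coefficient of variation was 12.5%. Two-sided p-values were adjusted by Benjamini-Hochberg over the 10212 genes kept, with calls at under 0.05. CPM are relative to TMM-scaled library sizes, except marker sums, which use total counts. The fit was also run on counts simulated without an outlying library such as non-targeting replicate 1. That run therefore cannot show how the fit behaves with such a library. Alternatives were DESeq2 1.42.0, other scalings, no filter, a replicate block, fits of only the groups compared, and leaving out each library. No 2 replicates agreed within sampling noise.

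The 8 genes and the gene lists were chosen with earlier results of these data known. Text names the 8 genes, TMCC2, family relatives, up to 4 genes per list by unadjusted p for both guides with at least 5 CPM in a group, and the 2 most similar patterns per gene. The haem enzymes compared per kb were named for their place in the pathway, and ALAS2 and FECH fall outside that rule. Not every gene so taken is reported here. Lengths, overlaps and distances came from GENCODE v29 (GRCh38), matched by symbol, and 9426 tested genes had a length. Of 6 annotated processed pseudogenes of SLC25A38, SLC25A39 and ABCB10, 0 are in the table, and reads they share with their parent genes could not be separated. Guide positions on the authors' build were not analysed here.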

Additional observations from a re-analysis of the deposited data

How the results depend on the processing

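None of the 8 transporters was called in any of 440 alternative values, of which 28 had the opposite sign; every one of the 28 started from a log2 fold change whose 95% interval included 0. FLVCR1 and ABCB6 had the fewest counts, 6 to 20 and 54 to 93 per library. Leaving out each library in turn gave log2 ranges that crossed 0 for ABCB10 (both guides -0.23 to 0.022, guide 2 -0.16 to 0.088), ABCB6 (both guides -0.049 to 0.19, guide 2 -0.36 to 0.11), ABCG2 (guide 2 -0.070 to 0.077), FLVCR1 (both guides -0.43 to 0.17, guide 1 -0.36 to 0.22, guide 2 -0.78 to 0.28, guide 2 against guide 1 -0.71 to 0.35), SLC25A38 (both guides -0.030 to 0.12, guide 1 -0.043 to 0.11, guide 2 -0.017 to 0.13, guide 2 against guide 1 -0.033 to 0.083), SLC25A39 (both guides -0.12 to 0.096, guide 1 -0.031 to 0.19, guide 2 -0.21 to 0.0040) and TMEM14C (guide 2 against guide 1 -0.15 to 0.0091).

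Counts of all genes called were 2 for both guides, 3 for guide 1, 1 for guide 2 and 0 for guide 2 against guide 1. They became 8, 19, 4 and 2 with no filter on low counts, 4, 6, 3 and 2 by DESeq2, and, for guide 2 against guide 1 with only those groups fitted, 19. Leaving out 1 library gave 1 to 53, 1 to 59, 1 to 128 and 0 to 32, each highest without non-targeting replicate 1; the cause was not tested. Deviations of same-numbered replicates from their group means had correlations of -0.25 to 0.04. With 2 libraries in a guide group, the deviations of these 2 mirror each other. The correlations therefore cannot decide whether the replicate numbers pair libraries. With a replicate block, 1 gene was called for both guides and 1 for guide 2 against guide 1, and for guide 2 ABCG2 stood at -0.070 and SLC25A39 at 0.0097.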
